A study of Homo sapiens with 4 samples.

Results

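The genes described here encode 35 subunits of the proteasome and of its 11S activator, chosen by name from the 57820 features of the count tables: PSMA1 to PSMA7, PSMB1, PSMB2 and PSMB4 to PSMB10, PSMC1 to PSMC6, 11 PSMD genes, PSME1 and PSME2. They were followed in ribosome footprints, the mRNA fragments that translating ribosomes shield from nuclease, so a count on a gene reflects both the amount of its mRNA and how densely ribosomes sat on it. The 4 libraries came from BJ-Ras-ER cells, human BJ fibroblasts that express hTERT and an H-RasV12 oncogene switched on by 4-hydroxytamoxifen (4-OHT). Proliferating cells were compared with cells in oncogene-induced senescence (OIS), which had received 100 nM 4-OHT for 12 days, and each state was treated with DMSO or with 10 µM GC7, a blocker of the hypusination of eIF5A, for 18 h. All 4 groups carry the same transgenes, and the OIS groups differ from the proliferating ones both in 4-OHT and in the oncogene it switches on. Each condition had 1 library, so no difference between a pair of conditions has a replicate check. The title and the treatment entry of 2 libraries (proliferating GC7 and OIS DMSO) contradict each other. The titles were followed, which the alignment names in the table headers match.

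The proteasome degrades proteins tagged with ubiquitin. Its 20S core is a barrel of alpha subunits (PSMA genes), which form the outer gates, and beta subunits (PSMB genes), of which PSMB5, PSMB6 and PSMB7 carry the proteolytic sites. In cells exposed to interferon these are replaced by PSMB8, PSMB9 and PSMB10, giving the immunoproteasome, which favours peptides for antigen presentation. The 19S particle caps the core: its ATPases (PSMC genes) unfold the substrate, its base also holds the scaffolds PSMD1 and PSMD2 and the ubiquitin receptor PSMD4, and its lid removes ubiquitin through PSMD14. PSME1 and PSME2 build the 11S cap, which opens the core without ubiquitin recognition. Proteasome genes are known to rise together through the transcription factor NFE2L1 when proteasome activity falls short.

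Total counts were 3039026 to 6553835 per library. Mitochondrial features took 2.89% of them in proliferating DMSO and 12.2% in OIS DMSO, against 0.0281% in proliferating GC7 and 0.141% in OIS GC7. Shares were therefore taken over nuclear counts. Both DMSO libraries lay above both GC7 libraries in this, and its part in the GC7 comparisons was not tested. The fibroblast markers COL1A1, COL1A2, VIM and FN1 had at least 6576 counts each in every library, whereas the epithelial markers EPCAM and CDH1 had 0 to 3 counts and the leukocyte marker CD74 had 0 or 1. The leukocyte marker PTPRC had 19 and 23 counts in the proliferating DMSO and GC7 libraries and 0 in both OIS libraries, and its part in the results was not tested. Of the state markers, LMNB1, a nuclear lamina gene lost in senescence, had log2 ratios of OIS over proliferating of -1.78 in DMSO and -1.42 in GC7, and CDKN1A, a cell cycle inhibitor, had 1.44 and 1.39.

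Proteasome subunits took a smaller part of the footprints in OIS than in proliferating cells. The 35 genes held 0.749% of nuclear counts in proliferating cells with DMSO (95% exact counting interval 0.741 to 0.758%) and 0.70% with GC7 (0.693 to 0.706%), against 0.509% in OIS cells with DMSO (0.501 to 0.518%) and 0.584% with GC7 (0.577 to 0.591%). The intervals here and below are Clopper-Pearson intervals that cover counting error only. The size of the difference depends on the scaling: after TMM scaling, which sets the bulk of the genes equal between libraries, the sums were 682, 626, 606 and 612 per 100000 scaled counts in the same order. The scaled sums thus lay closer together than the raw shares. In bulk libraries such as these, fewer cells that use a gene and less RNA per cell cannot be told apart, and no matched RNA-seq was used here.

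The classes of subunit did not move alike. The alpha ring had 145 and 139 counts per 100000 scaled counts in proliferating DMSO and GC7, against 87.6 and 92.9 in OIS DMSO and GC7. The sum over the non-ATPase base genes PSMD1, PSMD2 and PSMD4 was higher in OIS, with 84.0 and 61.5 in proliferating cells and 136 and 106 in OIS cells. PSMD1 and PSMD2 carried that sum, as PSMD4 had a ratio of OIS over proliferating below 0 in DMSO. Footprints on the listed 19S genes, divided by those on the listed 20S genes, came to 0.990 and 0.878 in proliferating cells with DMSO and GC7. In OIS cells they came to 1.5 and 1.21. These sums are not whole particles, as they leave out the core gene PSMB3 and the 19S genes ADRM1 and SEM1. PSMB3 had 1838, 2862, 752 and 1623 counts in proliferating DMSO, proliferating GC7, OIS DMSO and OIS GC7. Without PSMD1 and PSMD2 the ratio of listed 19S to listed 20S genes was 0.763, 0.715, 0.944 and 0.858. Both OIS libraries thus still lay above both proliferating ones. PSMD2 alone held 5.33% and 4.14% of the counts on the 35 subunits in proliferating DMSO and GC7 and 12.3% and 10.4% in OIS DMSO and GC7.

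**Figure D1:**
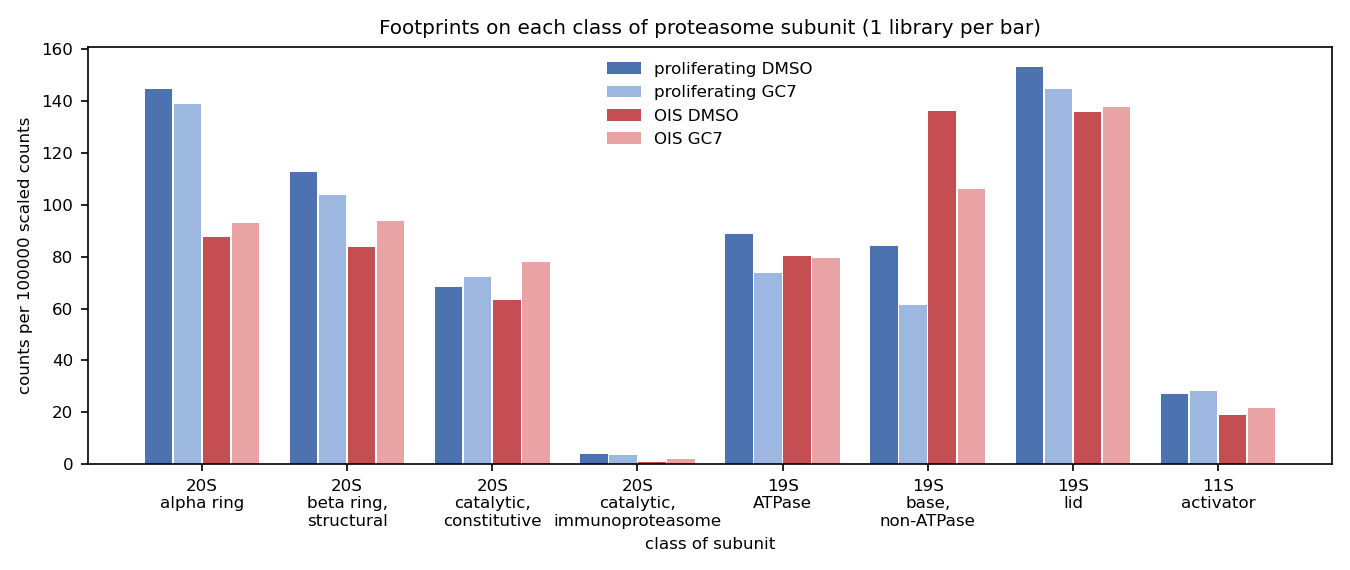
Footprints on each class of proteasome subunit (horizontal axis) in counts per 100000 scaled counts (vertical axis), with 1 bar per library and no error bar, as there is 1 library per condition. The alpha ring bars are lower in both OIS libraries (87.6 and 92.9) than in both proliferating libraries (145 and 139), and the non-ATPase base bars are higher (136 and 106 against 84.0 and 61.5).

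Levels were set between genes only per length, as counts per kb of annotated exon (untranslated parts included) per 1000000 scaled counts. On that scale the order of the subunits was similar in all libraries: across the 33 tested subunits, Spearman's rho between libraries was 0.89 to 0.99, a description over genes that share each library's depth and gene lengths. Of these 33, PSMB4, a structural beta subunit, had the highest level in 3 libraries (194 in proliferating DMSO, 168 in OIS DMSO and 181 in OIS GC7). PSMA7, an alpha subunit, was highest in proliferating GC7 (192). PSMB9 and PSMB8 were the lowest in every library, at 0 to 1.20 and 1.56 to 2.79. PSMD2 held place 16 of 33 in proliferating DMSO and place 2 in OIS DMSO, while PSMA5 went from place 9 to place 19. Genes in neighbouring places often had overlapping counting error, so single places carry little weight.

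**Figure D2:**
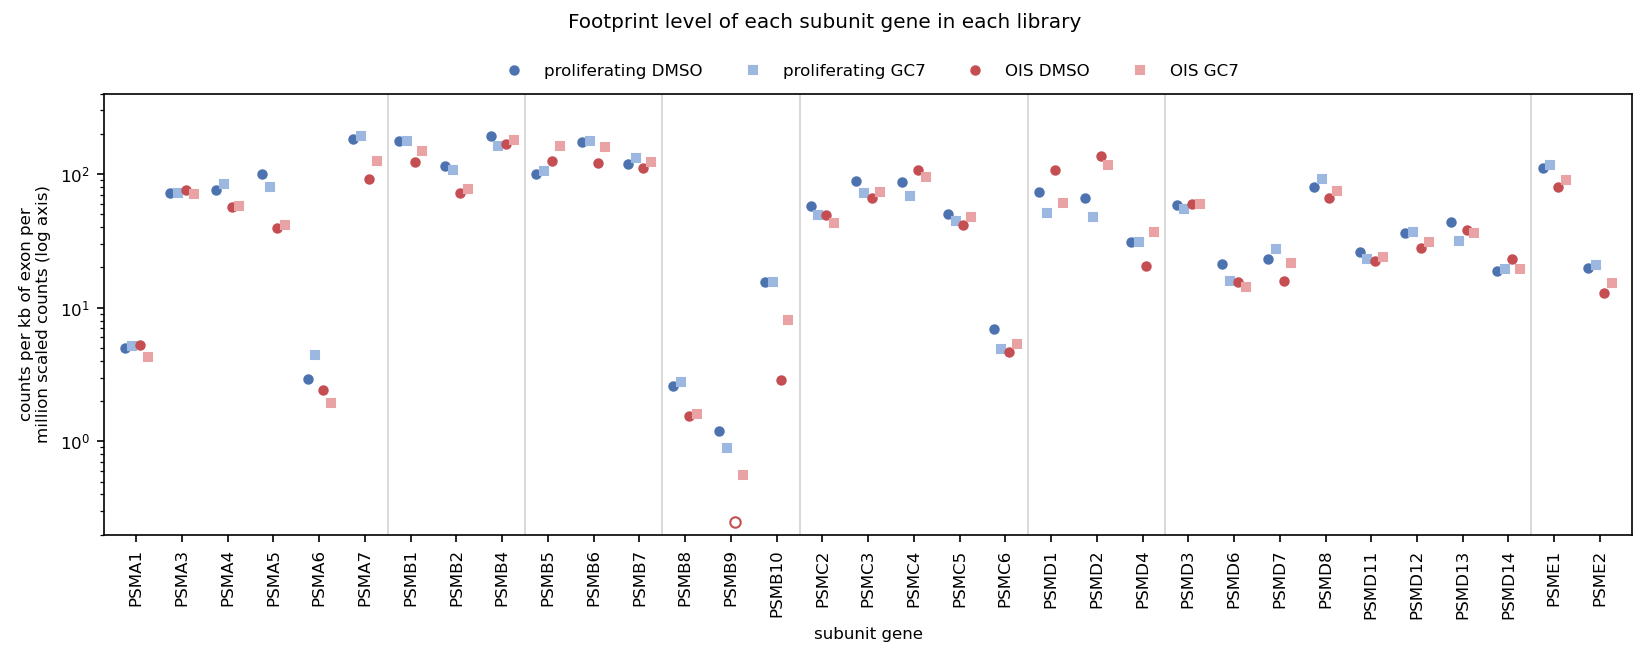
Level of each of the 33 tested subunit genes (horizontal axis, grouped by class) in counts per kb of exon per 1000000 scaled counts on a log axis, 1 point per library. PSMB9 had no count in OIS DMSO and is drawn as an open circle at the foot of the axis, and the immunoproteasome subunits PSMB8 and PSMB9 lie below all other subunits in every library.

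A few subunits had very low counts. PSMA2 had 0, 1, 0 and 0 counts and PSMC1 had 4, 1, 0 and 1 in proliferating DMSO, proliferating GC7, OIS DMSO and OIS GC7. Both fell under the sum of 40 counts set for testing, which left 33 of the 35 subunits. PSMA1, PSMA6 and PSMC6 passed, but at levels of 5.03, 2.95 and 6.98 in proliferating DMSO they stood far below the other members of their rings. PSMA1, PSMA2 and PSMA6 share 1221, 781 and 919 annotated exon bases with another feature on the same strand that had 2 counts at most in any library. Of the 1221 bases of PSMA1, 407 are also shared with a second feature on its strand, which had 1849, 2457, 1582 and 2246 counts. PSMC1 and PSMC6 share none. Reads that fit several features or places are not counted under the default setting of the counting program, and how many were lost on each subunit was not tested. The levels of these 5 genes are therefore uncertain. Strand was likewise not used, and PSMD1 shares 559 bases with a feature on the opposite strand that had 128, 443, 3 and 4 counts in the same order of libraries.

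In DMSO, most subunits were lower in OIS than in proliferating cells. The median log2 ratio over the 33 subunits was -0.39, beside -0.02 over all 11128 tested nuclear features. 25 of the 33 lay below 0, and in 22 the 95% counting interval lay wholly below 0, while in 5 it lay wholly above. Over all tested features, 50.7% lay below 0 and the interval was wholly below 0 in 27.0% and wholly above in 29.1%. A ratio of at least 2-fold with an interval that excludes equal levels was the rule for a larger difference. By this rule 1 subunit was higher (PSMD2), where 14.1% of all tested features were, and 4 were lower (PSMA5, PSMA7, PSMB9 and PSMB10), where 12.6% of all features were. The 4 lower subunits are thus near the background share, and the 1 higher subunit is under it. Under total-count scaling the median over all features was itself -0.40 and that of the subunits was -0.77, so the distance between them was -0.38, beside -0.37 after TMM scaling.

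In GC7, which shares no library with the DMSO comparison, the subunits were nearer to the other genes. The median log2 ratio of OIS over proliferating cells was -0.15, beside -0.01 over all features, with 21 of 33 subunits below 0, where 50.7% of all features were. The interval lay wholly below 0 in 15 subunits and wholly above in 8, against 31.3% and 31.8% of all features. PSMD2 was the 1 subunit at least 2-fold higher (background 12%) and PSMA6 the 1 at least 2-fold lower (background 11.5%). Between the 2 state comparisons 23 of 33 subunits (69.7%) had the same sign, 18 of them below 0 in both, against 76.9% same sign over all features. Spearman's rho was 0.70 over the 33 subunits and 0.72 over all features, given as a description, since genes of 1 library share its depth and scaling.

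**Figure D3:**
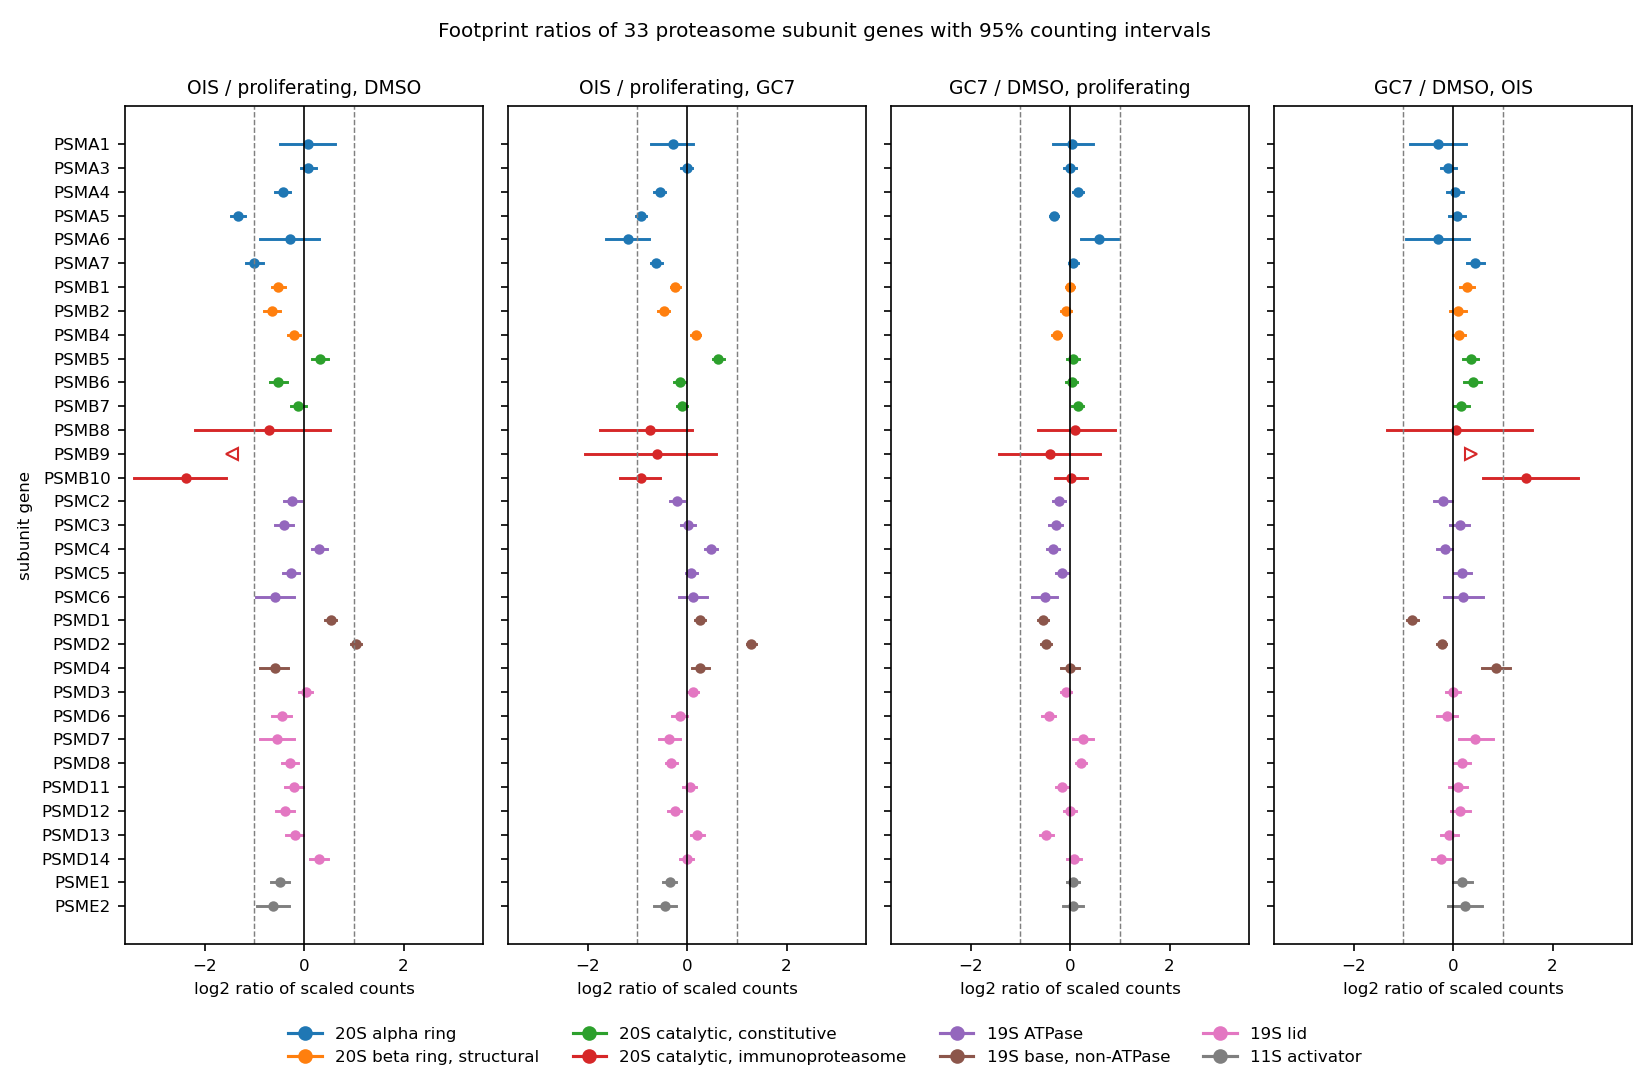
Log2 ratio of scaled counts (horizontal axis) of the 33 tested subunits (vertical axis, coloured by class) in the 4 comparisons, with 95% counting intervals as bars, equal levels as a solid line and 2-fold as dashed lines. Open triangles stand for PSMB9 where 1 library had no count and give the bound computed from 3 counts. They leave out the counting error of the other library. For GC7 in OIS cells the interval of PSMB9 starts at -0.28 and includes equal levels. PSMD2 lies at 1.04 and 1.29 in the state comparisons, and no subunit lies past 2-fold with GC7 in proliferating cells.

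The only p-values of this design came from an additive model of state and treatment. It leaves 1 residual degree of freedom, in which library noise and a response to GC7 that differs by state are mixed, and it borrows the spread of all features. With edgeR's quasi-likelihood test and Benjamini-Hochberg adjustment over the 11128 features, 1 subunit was called higher in OIS (PSMD2), beside 18% of all features, and 4 were called lower (PSMA5, PSMA7, PSMB2 and PSMB10), beside 14.5%. At an unadjusted p under 0.05, 11 of the 33 subunits passed for state, where 42.5% of all features did. The share of subunits called higher was below that of all features, and the share called lower was close to it.

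PSMD2 (ENSG00000175166), the scaffold of the 19S base on which ubiquitin receptors and shuttles dock, had the highest ratio of all subunits in both state comparisons. The gene lies on the plus strand at chr3:184016497-184026842 in hg19, the build of the tables. It had 1676 and 1897 counts in proliferating cells with DMSO and GC7 and 1671 and 2949 in OIS cells, which are levels of 66.6, 47.5, 137 and 117. Both OIS levels lie above both proliferating levels. The log2 ratio of OIS over proliferating was 1.04 in DMSO (counting interval 0.94 to 1.13) and 1.29 in GC7 (1.21 to 1.38), and the additive model gave a log2 fold change of 1.17 with an adjusted p of 0.00117 by edgeR's quasi-likelihood test.

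PSMD1 (ENSG00000173692), the other large scaffold of the base, had levels of 74.0, 50.7, 107 and 60.5 in proliferating DMSO, proliferating GC7, OIS DMSO and OIS GC7. The OIS GC7 level lies below the proliferating DMSO level, so the groups overlap. Its ratio of OIS over proliferating was 0.53 in DMSO (0.43 to 0.64) and 0.25 in GC7 (0.15 to 0.35), and it was not called for state by edgeR's quasi-likelihood test (adjusted p = 0.164). PSMD4 (ENSG00000159352), the ubiquitin receptor of the base, had levels of 30.9, 30.8, 20.5 and 37.1. It was thus lowest in OIS DMSO and highest in OIS GC7, with a log2 ratio of -0.59 for OIS in DMSO and 0.27 in GC7.

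The alpha ring held 2 of the 4 subunits that were called lower for state. PSMA5 (ENSG00000143106; chr1:109941653-109969062, minus strand, hg19) had 2639, 3335, 508 and 1108 counts in proliferating DMSO, proliferating GC7, OIS DMSO and OIS GC7, which are levels of 99.7, 79.4, 39.5 and 41.7. Both OIS levels lie below both proliferating levels. Its log2 ratio of OIS over proliferating was -1.34 in DMSO (-1.48 to -1.20) and -0.93 in GC7 (-1.03 to -0.83), with an adjusted p of 0.00144 by edgeR's quasi-likelihood test. PSMA7 (ENSG00000101182; chr20:60711791-60718496, minus strand) had levels of 184, 192, 91.8 and 125, again lower in both OIS libraries. Its ratio in DMSO lay just past the 2-fold limit, with an interval of -1.17 to -0.84, and it was -0.62 in GC7 (adjusted p = 0.0092, edgeR's quasi-likelihood test). Not every gate subunit went this way: PSMA3 had levels of 71.7, 71.6, 75.9 and 71.2, with intervals that include 0 in both state comparisons. PSMA6, past 2-fold in GC7 only, rested on 88, 210, 35 and 58 counts and was not called in the additive model (adjusted p = 0.0556, edgeR's quasi-likelihood test).

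The structural beta subunits PSMB1, PSMB2 and PSMB4 had ratios of -0.65 to -0.21 for OIS in DMSO, all with intervals below 0, and of -0.47 to 0.17 in GC7. PSMB2 (ENSG00000126067) had levels of 114, 108, 72.7 and 77.9, lower in both OIS libraries, and was the 1 of them called (log2 fold change -0.56, adjusted p = 0.0451, edgeR's quasi-likelihood test). That p lies close to the limit, and DESeq2's Wald test did not call the gene.

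Of the constitutive catalytic subunits, none passed the 2-fold rule or the additive model. PSMB5, the chymotrypsin-like subunit and the main target of proteasome inhibitors, had levels of 101, 105, 126 and 161 and thus its highest values in OIS. Its ratio of OIS over proliferating was 0.32 in DMSO (0.16 to 0.48) and 0.62 in GC7 (0.51 to 0.73), with an adjusted p of 0.0853 by edgeR's quasi-likelihood test, and under total-count scaling the DMSO ratio turned to -0.07. PSMB6, the caspase-like subunit, had levels of 174, 177, 121 and 159, lowest in OIS DMSO. PSMB7, the trypsin-like subunit, had 120, 133, 111 and 124, with intervals that include 0 in both state comparisons.

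The immunoproteasome subunits were read from few counts. PSMB10 (ENSG00000205220; chr16:67968405-67970990, minus strand, hg19), which takes the place of PSMB7, had 133, 213, 12 and 70 counts in proliferating DMSO, proliferating GC7, OIS DMSO and OIS GC7, which are levels of 15.6, 15.7, 2.89 and 8.15. Both OIS levels lie below both proliferating levels. Its log2 ratio of OIS over proliferating was -2.38 in DMSO (-3.42 to -1.58) and -0.94 in GC7 (-1.36 to -0.55), with an adjusted p of 0.00463 by edgeR's quasi-likelihood test. PSMB9, which takes the place of PSMB6, had 17, 20, 0 and 8 counts. Against the limit of 3 counts that a count of 0 allows in the OIS DMSO library, it was at least 2.75-fold lower in OIS DMSO than in proliferating DMSO. That bound leaves out the counting error of the 17 counts, and the interval of the ratio, which holds it, reached to just past 2-fold lower. Its ratio in GC7 was -0.60, with an interval of -2.06 to 0.58. PSMB8, which takes the place of PSMB5, had 24, 41, 7 and 15 counts, with ratios of -0.70 and -0.75 whose intervals include 0. PSMB10 and PSMB9 share 644 and 174 annotated exon bases with another feature on the same strand, which had 0 counts in every library in both cases. PSMB8 shares 425 with a feature on the opposite strand, also at 0 counts. The shared bases are 34.8%, 5.66% and 21.2% of the exon bases of PSMB10, PSMB9 and PSMB8. Reads that fit both features are not counted, and how far this lowers their levels and the percents below was not tested.

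Set against its constitutive counterpart, each immunoproteasome subunit was a minor part. Per exonic length, PSMB10 stood at 13.0% of PSMB7 in proliferating cells with DMSO (10.8 to 15.6%) and 11.8% with GC7 (10.2 to 13.6%), and at 2.61% in OIS cells with DMSO (1.34 to 4.60%) and 6.56% with GC7 (5.08 to 8.35%). The 2 OIS intervals do not overlap each other or the proliferating ones. PSMB8 stood at 2.57%, 2.67%, 1.24% and 1.0% of PSMB5, and the OIS DMSO interval (0.495 to 2.57%) overlaps those of both proliferating libraries. The OIS GC7 interval (0.559 to 1.66%) lies below that of proliferating GC7 (1.91 to 3.64%). PSMB9 stood at 0.691%, 0.503%, 0% and 0.353% of PSMB6, where the 0 allows up to 0.445%. These ratios within a library do not depend on the scaling between libraries.

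**Figure D4:**
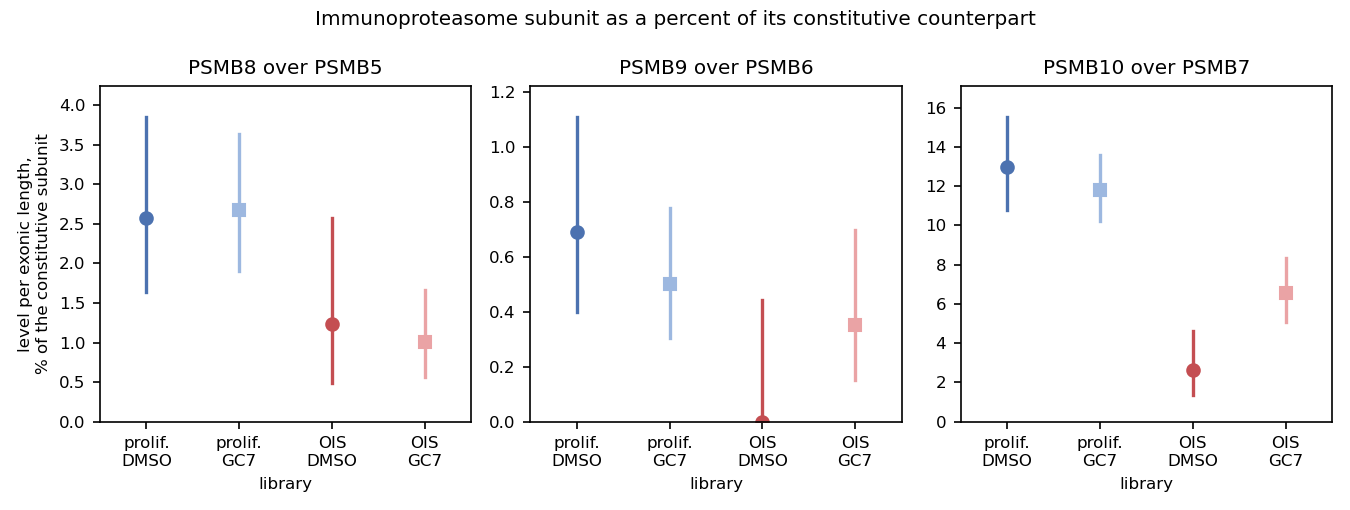
Level per exonic length of each immunoproteasome subunit as a percent of its constitutive counterpart (vertical axis, a scale of its own in each panel) in the 4 libraries (horizontal axis), with 95% exact counting intervals as bars. PSMB10 stands at 13.0% of PSMB7 in proliferating DMSO, at 2.61% in OIS DMSO and at 6.56% in OIS GC7.

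The 11S genes PSME1 and PSME2 stood in a similar ratio to each other in the 4 libraries. PSME1 had levels of 112, 116, 79.9 and 90.8 in proliferating DMSO, proliferating GC7, OIS DMSO and OIS GC7, and PSME2 had 330, 544, 104 and 254 counts. Both had lower levels in both OIS libraries. PSME1 over PSME2 was 558%, 559%, 616% and 593% per exonic length, with overlapping intervals. The size of this ratio rests on the annotated exon lengths, untranslated parts included, of 1781 bases for PSME1 and 3579 for PSME2. By counts alone it was 278%, 278%, 307% and 295%. Neither passed the 2-fold rule or the additive model (adjusted p = 0.116 and 0.0564, edgeR's quasi-likelihood test), although all 4 of their state intervals lay below 0.

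The ATPases and the lid showed small differences. The 5 tested ATPase genes had ratios of -0.58 to 0.30 for OIS in DMSO and of -0.20 to 0.48 in GC7, and the 8 lid genes had -0.55 to 0.30 and -0.36 to 0.21. None of these genes passed the 2-fold rule in any comparison or was called in the additive model. PSMC4 was the 1 ATPase gene whose interval of OIS over proliferating lay wholly above 0 in both treatments, at levels of 87.1, 68.5, 107 and 95.5. PSMD14, the deubiquitinase of the lid, had 664, 1105, 397 and 694 counts, with ratios of 0.30 in DMSO and -0.01 in GC7.

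In proliferating cells the subunits were centred close to equal levels with and without GC7. The median log2 ratio of GC7 over DMSO was -0.004, beside 0.02 over all features, and no subunit was at least 2-fold higher (background 3.42%) or lower (background 2.06%). The sign of so small a median turned with the scaling. PSMA6, on few counts, had the highest ratio (0.58, interval 0.22 to 0.96) and PSMD7, a lid gene, the next (0.26). PSMD1 had the lowest (-0.54, interval -0.64 to -0.45), followed by PSMC6 (-0.51). The interval lay wholly below 0 in 12 of the 33 subunits and wholly above in 5, against 19.4% and 20.1% of all features. The 12 include all 5 tested ATPase genes, with ratios of -0.51 to -0.16.

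In OIS cells the median ratio of GC7 over DMSO was 0.11, beside 0.01 over all features, and 22 of 33 subunits lay above 0, where 49.0% of all features lay below 0. The interval lay wholly above 0 in 10 subunits and wholly below in 5, against 15.3% and 18% of all features. PSMB10 was at least 2-fold higher (1.46, interval 0.60 to 2.52, on 12 and 70 counts), where 3.57% of all features were, and no subunit was at least 2-fold lower, where 2.79% were. Among subunits with at least 200 counts PSMD4 came next, at 0.85 (0.58 to 1.14), and PSMD1 was lowest, at -0.82 (-0.93 to -0.71). The 10 include the 3 constitutive catalytic subunits, at 0.36 for PSMB5, 0.40 for PSMB6 and 0.17 for PSMB7. PSMB9 went from 0 to 8 counts, with an interval that includes equal levels.

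PSMD1 was the subunit with the largest fitted difference for treatment. GC7 over DMSO was -0.54 in proliferating and -0.82 in OIS cells, comparisons that share no library, and the additive model gave -0.68 with an unadjusted p of 0.00571 and an adjusted p of 0.295 by edgeR's quasi-likelihood test. It therefore did not pass. With this test 0 of 33 subunits were called for treatment in either direction, where 0.144% of all features were called higher and 0.243% lower. 1 subunit, PSMD1, was under an unadjusted p of 0.05, as were 9.66% of all features, and DESeq2's Wald test called 0 as well.

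The GC7 ratio was larger in OIS than in proliferating cells for 25 of 33 subunits, with a median difference of 0.19 (log2 scale), beside -0.01 over all features. The counting interval of the difference lay above 0 in 16 subunits and below 0 in 3, against 15.1% and 17.0% of all features. By its arithmetic the same difference is the OIS ratio in GC7 minus the OIS ratio in DMSO, so it is not a second finding beside the lower subunit levels in OIS DMSO, the library with the fewest counts and the most mitochondrial counts, whose part in it was not tested. The difference was 0.41 for PSMA5, 0.86 for PSMD4 and 1.45 for PSMB10. It was -0.28 for PSMD1 and -0.90 for PSMA6. Between the 2 GC7 comparisons 20 of 33 subunits (60.6%) had the same sign, against 56.3% of all features, and Spearman's rho was 0.20 and 0.17.

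**Figure D5:**
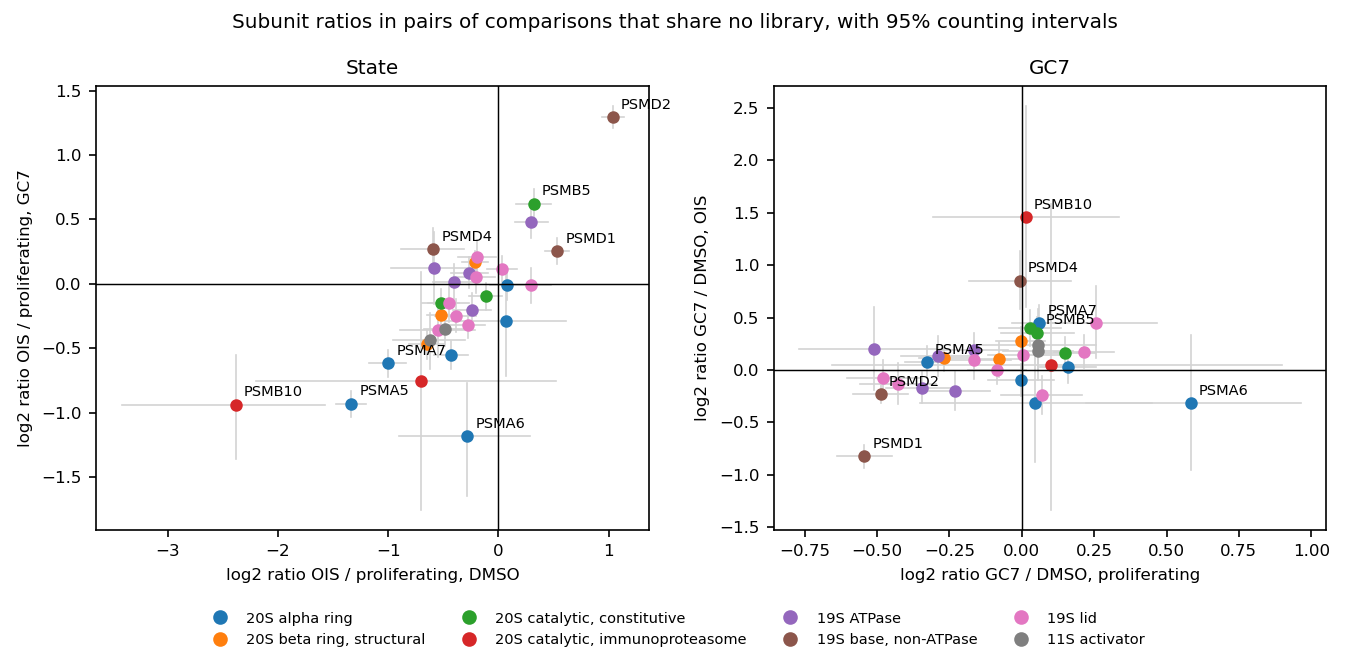
Log2 ratios of 32 subunits (PSMB9, with no count in 1 library, is left out) in the 2 pairs of comparisons that share no library, as points coloured by class with 95% counting intervals as grey bars. The state ratios in DMSO and GC7 run along the diagonal, from PSMB10 and PSMA5 at the lower left to PSMD2 (1.04 and 1.29) at the upper right, while the GC7 ratios in proliferating and OIS cells lie around 0 with PSMD1 at the lower left (-0.54 and -0.82).

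To see what the promoters of the subunits share, the bases before the RefSeq gene start (build GRCh38.p14, which is not the build of the tables) were searched for 3 motifs on both strands, over 250 bases per window. RefSeq windows were at hand for 30 of the 35 genes (37 windows). PSMA7, PSMB1, PSMB6, PSMB7 and PSMD4 had no entry. The core of the antioxidant response element, TGACNNNGC, which NFE2L1 and NFE2L2 bind, was present for 7 of the 30 genes (23.3%), against 13.2% of the 27305 genes with a window. The box CCAAT was present for 14 of 30 (46.7%), against 37.0%. The core of the interferon-stimulated response element, a GAAA followed by another GAAA with any 2 bases between, was present for PSMA4, PSMB4, PSMB10 and PSME2, 4 of 30 (13.3%), against 3.71%. These counts describe letters and do not show that a factor binds. The last 100 bases before the start are printed for the scaffolds PSMD2 and PSMD1 and for PSMA5, PSMB10 and PSME2, which were lower in both OIS libraries. These genes were picked by their direction, so their motifs do not stand for those of the other subunits. They are not all the subunits of that direction: PSMB2, PSME1 and PSMA4 were also lower in both OIS libraries and are not printed. PSME2 is printed although it was not called for state. The stretches lie at chr3:184299141-184299240, plus strand (the first of its 2 windows), chr2:231056767-231056866, plus strand, chr1:109426449-109426548, minus strand, chr16:67936851-67936950, minus strand, and chr14:24146611-24146710, minus strand. Capitals mark matches to the 3 motifs.
PSMD2: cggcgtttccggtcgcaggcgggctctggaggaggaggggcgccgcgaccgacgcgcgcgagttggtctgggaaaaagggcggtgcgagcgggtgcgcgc
PSMD1: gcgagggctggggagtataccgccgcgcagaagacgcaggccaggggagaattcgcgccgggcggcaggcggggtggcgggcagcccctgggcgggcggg
PSMA5: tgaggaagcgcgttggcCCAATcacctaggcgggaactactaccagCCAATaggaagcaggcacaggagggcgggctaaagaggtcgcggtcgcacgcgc
PSMB10: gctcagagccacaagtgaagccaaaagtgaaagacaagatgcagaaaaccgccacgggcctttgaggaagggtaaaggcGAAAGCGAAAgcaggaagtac
PSME2: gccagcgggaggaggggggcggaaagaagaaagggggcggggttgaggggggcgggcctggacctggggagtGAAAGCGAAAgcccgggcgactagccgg
PSMA5 has 2 CCAAT boxes, and PSMB10 and PSME2 carry the same interferon element, GAAAGCGAAA, at 21 to 12 and 28 to 19 bases before the start. The stretches of PSMD2 and PSMD1 hold none of these letters, nor do the rest of their windows. PSMB8 and PSMB9, the other immunoproteasome subunits, have no match to the interferon core in these windows. Among the subunits not printed, PSMB2, called lower for state, has no match to any of the 3 motifs. PSMB5, with its highest levels in OIS, has a CCAAT box. PSMB4 carries the interferon core and had ratios of OIS over proliferating of -0.21 in DMSO and 0.17 in GC7. A link between motif and direction was not tested.

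The other genes of the pathway were taken from lists of genes that act with the proteasome, and none of them was called for treatment in the additive model. The 8 further subunits, activators and associated enzymes had median ratios of 0.07 and 0.13 for OIS in DMSO and GC7. None passed the 2-fold rule in any comparison, where 14.1% of all features were higher and 12.6% lower for OIS in DMSO. In DMSO they ranged from SEM1, a small lid subunit (-0.37), to PSME4, an alternative cap (0.64). SEM1, with 260, 546, 98 and 190 counts in proliferating DMSO, proliferating GC7, OIS DMSO and OIS GC7, was the 1 called lower for state in the additive model (adjusted p = 0.0365, edgeR's quasi-likelihood test). This is 1 of 8, close to the 14.5% of all features called lower.

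Chaperones that assemble the proteasome had ratios of OIS over proliferating below 0 in 7 of 9 cases in DMSO and 8 of 9 in GC7, with medians of -0.63 and -0.30, where 50.7% of all features lay below 0 in each. 3 of the 9 were called lower for state and none higher by edgeR's quasi-likelihood test, beside 14.5% and 18% of all features. These were PSMG1 (244, 544, 70 and 162 counts, adjusted p = 0.00456) and PSMG2 (381, 570, 86 and 183 counts, adjusted p = 0.00165), partners that put the alpha ring together, and POMP (1453, 2714, 441 and 1207 counts, adjusted p = 0.0363), which guides the beta subunits onto it. For all 3 the level in OIS was lower in both treatments, with ratios of -0.76, -1.10 and -0.68 in DMSO and -1.08, -0.98 and -0.51 in GC7. By the 2-fold rule 2 of 9 were lower in OIS DMSO (PSMG2 and PSMG3), beside 12.6% of all features. In GC7 1 of 9 was lower in OIS (PSMG1), beside 11.5%. PSMG3, on 31, 89, 5 and 36 counts, had a ratio of -1.51 in DMSO and was not called in the additive model. It was also the 1 chaperone at least 2-fold higher with GC7 in OIS cells (1.71), beside 3.57% of all features. At the other end PAAF1, a chaperone of the ATPases, had 0.14 in DMSO.

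NFE2L1, the transcription factor named above, was higher in OIS. It had 1548, 3684, 2040 and 3326 counts in proliferating DMSO, proliferating GC7, OIS DMSO and OIS GC7, with a ratio of OIS over proliferating of 1.44 in DMSO and 0.51 in GC7 and an adjusted p of 0.0107 by edgeR's quasi-likelihood test. Its relative NFE2L2 (-0.27 and -0.69), the protease DDI2 (0.08 and 0.08) and the glycanase NGLY1 (-0.50 and -0.54), both of which process NFE2L1, were not called. Thus 1 of 4 genes was called higher for state, beside 18% of all features. With GC7, NFE2L1 moved in opposite directions in the 2 states. GC7 over DMSO was 0.58 in proliferating cells (0.50 to 0.67) and -0.34 in OIS cells (-0.42 to -0.26). With 1 library per condition this difference of -0.93 was not tested.

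Among 10 genes of ubiquitin and of delivery to the proteasome, UBA1, the main ubiquitin-activating enzyme, and UBQLN2, a shuttle, were called higher for state (adjusted p = 0.0156 and 0.0203, edgeR's quasi-likelihood test). These are 2 of 10, close to the 18% of all features called higher. Their ratios in DMSO were 0.88 and 0.89 and in GC7 0.52 and 0.49. None of the 10 passed the 2-fold rule, where 14.1% of all features were higher and 12.6% lower for OIS in DMSO. Among the genes of interferon response and antigen processing, TAP1, the peptide transporter, was called higher (adjusted p = 0.0318, edgeR's quasi-likelihood test). It had 37, 50, 38 and 65 counts in proliferating DMSO, proliferating GC7, OIS DMSO and OIS GC7, with ratios of 1.06 in DMSO and 1.01 in GC7. IRF1 and B2M were not called, and TAP2 had 0 counts in every library. TAP1 and PSMB10, both known to be induced by interferon, thus had opposite directions for state.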

How the data were processed

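The submitters' processing notes name hg19 and STAR version 2.5.3a for the alignment. The authors deposited whole-number counts per gene, not normalized, for GENCODE version 19 genes, obtained with featureCounts version 1.5.1. According to the headers, no strand, multi-mapping or overlap option was set, so the program's defaults hold. The linkers carried molecular identifiers, and whether reads were collapsed by them or trimmed was not given in the sources used here. The tables hold 57820 features under Ensembl numbers, and no row lacks a gene. The 35 subunit numbers came with their names, and each was checked against the chromosome, strand and approximate place of the RefSeq gene of that name. Members, gene lists and tests were chosen with earlier results of these data known.

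The 37 mitochondrial features were set aside, and of the nuclear ones the 11128 whose summed count reached 40 were tested. Scaling was by TMM in edgeR version 4.0.16 (R version 4.3.3), and log2 ratios used a prior count of 1. Counting intervals at 95% were exact conditional binomial, and intervals of a difference of ratios used a normal approximation. A larger difference needed a ratio of at least 2-fold and an interval that excludes equal levels. State and treatment were tested in an additive model with edgeR's quasi-likelihood test and Benjamini-Hochberg adjustment at 0.05, and the alternatives included DESeq2 version 1.42.0. Groups of 1 library leave the spread between replicates unknown. Depth was 3039026 to 6553835 counts per library.

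Named with values were the 6 catalytic subunits, both 11S subunits, every subunit past the 2-fold rule or called in the model, and the 2 highest and 2 lowest of each comparison with at least 200 counts. PSMA3, PSMB4, PSMC4, PSMD14 and the subunits with few counts were named after their values were seen. Of the other genes, those past the same rules and the highest and lowest of each list were named, except for some items that are not reported here. Promoter windows came from RefSeq (GRCh38.p14) and were searched in Python version 3.11.15.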

Additional observations from a re-analysis of the deposited data

Results flagged for a closer look

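For 4 subunits the libraries of one state or treatment moved one way and those of the other the opposite way, and the counting intervals lay on opposite sides of 0. With 1 library per condition the difference was not tested. The GC7 ratio of the ATPase gene PSMC5 was -0.16 in proliferating cells and 0.19 in OIS cells, a difference of 0.35 on the log2 scale. The ratio of OIS over proliferating was -0.21 in DMSO and 0.17 in GC7 for PSMB4 (difference 0.38), -0.59 and 0.27 for PSMD4 (difference 0.86), and -0.19 and 0.21 for the lid gene PSMD13 (difference 0.40). PSMC5 and PSMD13 share annotated exon bases with a feature on the opposite strand, and the part of that overlap in these values was not tested.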

How the results depend on the processing

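The direction of the median subunit ratio in both state comparisons and for GC7 in OIS cells was the same with each alternative scaling, filter and prior count run, while that for GC7 in proliferating cells, close to 0, did not keep its sign. Total-count scaling gave medians of -0.77 for OIS in DMSO and -0.38 in GC7, with 4 subunits past the 2-fold rule for OIS in GC7 and 2 for GC7 in OIS cells, and 15 subunits called for state. It also moved the share of higher features among all features past the rule from 52.8% to 27.4% for OIS in DMSO, from 50.9% to 33.8% for OIS in GC7, and from 56.2% to 77.5% for GC7 in OIS cells. Upper-quartile scaling gave 4 subunits past the rule for OIS in GC7 and 8 called for state. PSMD2 was no longer past 2-fold for OIS in DMSO with total-count scaling (0.65), upper-quartile scaling (0.92) or a minimum sum of 400 counts (0.99), and PSMA7 was not with DESeq2 size factors (-0.99). The minimum of 400 left 3 subunits past the rule for OIS in DMSO and 1 in GC7, and a minimum of 1 gave 4 in GC7. A 1.5-fold limit gave 8, 6 and 3 for OIS in DMSO, OIS in GC7 and GC7 in OIS cells. Only the 20 tested subunits that share no base with another feature, an alternative chosen after seeing the data, held 3, 1 and 0. PSMB2 was not called for state by DESeq2's Wald test or without treatment in the model. With mitochondrial counts in the total, the subunits held 0.728% of the counts in proliferating DMSO and 0.447% in OIS DMSO. The cause of these shifts was not tested. No paired analysis was possible because each condition has 1 library with no replicate numbers to pair, beyond the additive model, which compares each factor within the other. For the same reason no replicate could be left out. Depth limits the subunits with few counts: PSMA2 and PSMC1 could not be tested, and PSMB9, PSMB8, PSMA1, PSMA6 and PSMB10 had fewer counts than the other tested subunits.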
